A study of Arabidopsis thaliana with 12 samples.

Results

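Introns of 100 bp or less whose retention differed between genotypes or between light conditions in dark-grown Arabidopsis thaliana seedlings are described here. They were taken from the authors' lists of splicing bins, stretches of a gene bounded by splice sites, for 4 comparisons. A bin was included when it was marked as an intron and was 100 bp or shorter in any of the 4 lists, which gave 754 introns of 620 gene loci, out of 2110 listed introns and 2549 listed bins of any kind. The lists themselves hold bins past the authors' false discovery rate of 5% and a change of at least 3 percentage points, so the direction and size of a change in those comparisons chose these introns and are given as a description, with no test.

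The plants were Col-0 wild type and sfps-2, a knockout of the splicing factor SFPS, grown in the dark on medium without sucrose until 4 days old and then kept in the dark or given red light of 7 µmol m-2 s-1 for 3 h. Each of the 4 groups (wild type dark, wild type red, sfps-2 dark, sfps-2 red) has 3 libraries, 12 in all, made with a stranded kit from whole-seedling total RNA freed of ribosomal RNA. All libraries were numbered 1 to 3 within their group, and the labels do not say whether these came from separate cultures, so any p-value measures only the spread between the libraries. The mutant label was checked on the SFPS transcript: in the authors' deposited table SFPS stood at 8.04 FPKM (fragments scaled to transcript length and library size) in dark wild type against 1.83 in dark sfps-2, and at 7.90 against 1.93 after red light.

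Splicing removes introns from precursor RNA at a 5′ splice site, usually starting with GT, and a 3′ splice site, usually ending with AG after a stretch rich in pyrimidines. Plant introns are short compared with those of animals, and retention of a whole intron is the commonest form of alternative splicing in plants. SFPS is a splicing factor that was found through its part in phytochrome signalling, the red-light pathway that switches seedlings from growth in darkness to greening. A retained intron in coding sequence often brings in a stop codon or shifts the reading frame.

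The sequences of 9 introns show what is being measured: each is a whole intron, printed 5′ to 3′ on the gene's own strand from the RefSeq genome TAIR10.1, with the first 6 and the last 5 bases in capitals because these hold the splice sites. The first 4 are introns whose retention differed between the genotypes, and the rest are introns whose retention differed between dark and red light.
AT1G69450 intron 7 of 8, chr1:26107619-26107699, minus strand: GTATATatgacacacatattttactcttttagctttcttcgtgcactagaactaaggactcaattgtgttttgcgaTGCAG
AT5G24352 intron 4 of 4, chr5:8311614-8311707, plus strand: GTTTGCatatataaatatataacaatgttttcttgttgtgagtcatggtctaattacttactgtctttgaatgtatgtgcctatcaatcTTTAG
AT4G27640 intron 10 of 19, chr4:13800095-13800180, minus strand: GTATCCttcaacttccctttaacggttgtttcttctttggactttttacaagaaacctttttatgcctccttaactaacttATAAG
NodGS intron 2 of 16, chr3:19707784-19707871, plus strand: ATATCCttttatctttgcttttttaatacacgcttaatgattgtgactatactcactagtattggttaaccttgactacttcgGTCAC
CaS intron 5 of 5, chr5:7736995-7737073, minus strand: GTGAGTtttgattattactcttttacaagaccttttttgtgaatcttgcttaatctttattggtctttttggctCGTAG
ASY3 intron 9 of 9, chr2:19299931-19300025, minus strand: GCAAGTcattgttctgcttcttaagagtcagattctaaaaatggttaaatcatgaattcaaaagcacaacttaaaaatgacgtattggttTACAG
Cpn60beta4 intron 9 of 12, chr1:9073121-9073196, minus strand: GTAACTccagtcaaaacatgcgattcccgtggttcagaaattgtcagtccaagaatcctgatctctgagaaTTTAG
ARR11 intron 2 of 4, chr1:25378489-25378562, minus strand: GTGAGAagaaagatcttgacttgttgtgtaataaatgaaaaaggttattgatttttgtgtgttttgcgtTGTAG
PIF7 intron 5 of 5, chr5:24638996-24639080, minus strand: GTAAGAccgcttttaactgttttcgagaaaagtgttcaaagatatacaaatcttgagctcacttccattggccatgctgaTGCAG

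Of the 754 introns, 753 had the start and end of an intron annotated in RefSeq. They ranged from 59 to 100 bp with a median of 85 bp. GT and AG ended 746 of them, GC and AG ended 7, the ASY3 intron among these, and AT and AC ended 1, the NodGS intron. By annotation 716 interrupted coding sequence, 22 lay in a 5′ UTR, 13 in a 3′ UTR and 2 in noncoding transcripts. Read through in frame, 593 of the coding ones (82.8%) held a stop codon and 476 (66.5%) had a length that shifts the frame. At least one of these held for 683 (95.4%), beside 95.0% of all annotated introns of 100 bp or less. The AT1G69450 intron is among the 33 with neither, since its 81 bases hold no stop and keep the frame. Mean GC content was 32.9%, beside 32.6% in the annotated short introns.

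Retention was computed per library as the share of junction reads that cross either intron boundary, (J1+J2)/(J1+J2+2×J3), where J1 and J2 are the deposited counts over the 5′ and the 3′ boundary and J3 the count of spliced reads. The share cannot tell unspliced precursor RNA from mature mRNA that keeps an intron, and in whole seedlings fewer cells of a type and less RNA per cell cannot be told apart. The total reads per library are unknown. Over the 105 short introns with counts in all 12 libraries, the reads behind the shares , counted as (J1+J2)/2+J3, summed to between 55323.5 in sfps-2 dark replicate 3 and 89152.5 in wild type red replicate 3, and the median retention of a library lay between 11% and 14.6%. Most introns were listed once: 623 in 1 comparison, 125 in 2, 5 in 3 and 1 in all 4. Directions and sizes of change below come from the means of the library shares. The authors' shares are from reads summed over a group, so a listed change can be under 3 points here or run the other way.

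In the dark, sfps-2 seedlings had 102 short introns listed as more retained than in wild type and 71 as less retained. The more retained group held introns of AT1G69450, an ERD4 family protein, and AT1G18660, a RING finger protein. The less retained group held introns of ECIP1, EDM2 and SOS4. More retention made up 59.0% of the 173, while among all 743 introns listed for this comparison, whatever their length, 64.3% were more retained. The median size of the change was 7.90 points, a point being 1 percentage point of retention between the means of 3 libraries, and 64 introns differed by 10 points or more. The libraries of the 2 groups did not overlap for 154 (89.0%), beside a background of 86.3% over all listed introns.

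After red light, 147 of 216 short introns (68.1%) were listed as more retained in sfps-2, beside 70.7% of all 788 introns listed for that comparison, and 69 as less retained. The median size was 7.62 points, 76 introns differed by 10 points or more, and the groups did not overlap for 183 (84.7%), beside 84.1%. The 2 genotype comparisons share no library. They share 45 short introns, which is 26% of those listed in the dark and 20.8% of those listed after red light. Of these, 22 were more retained in sfps-2 in both, 22 were less retained in both, and 1 went opposite ways. The shares were 35% and 35.6% for listed introns of over 100 and up to 250 bp and 52.2% and 50.9% for those over 250 bp.

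**Figure D1:**
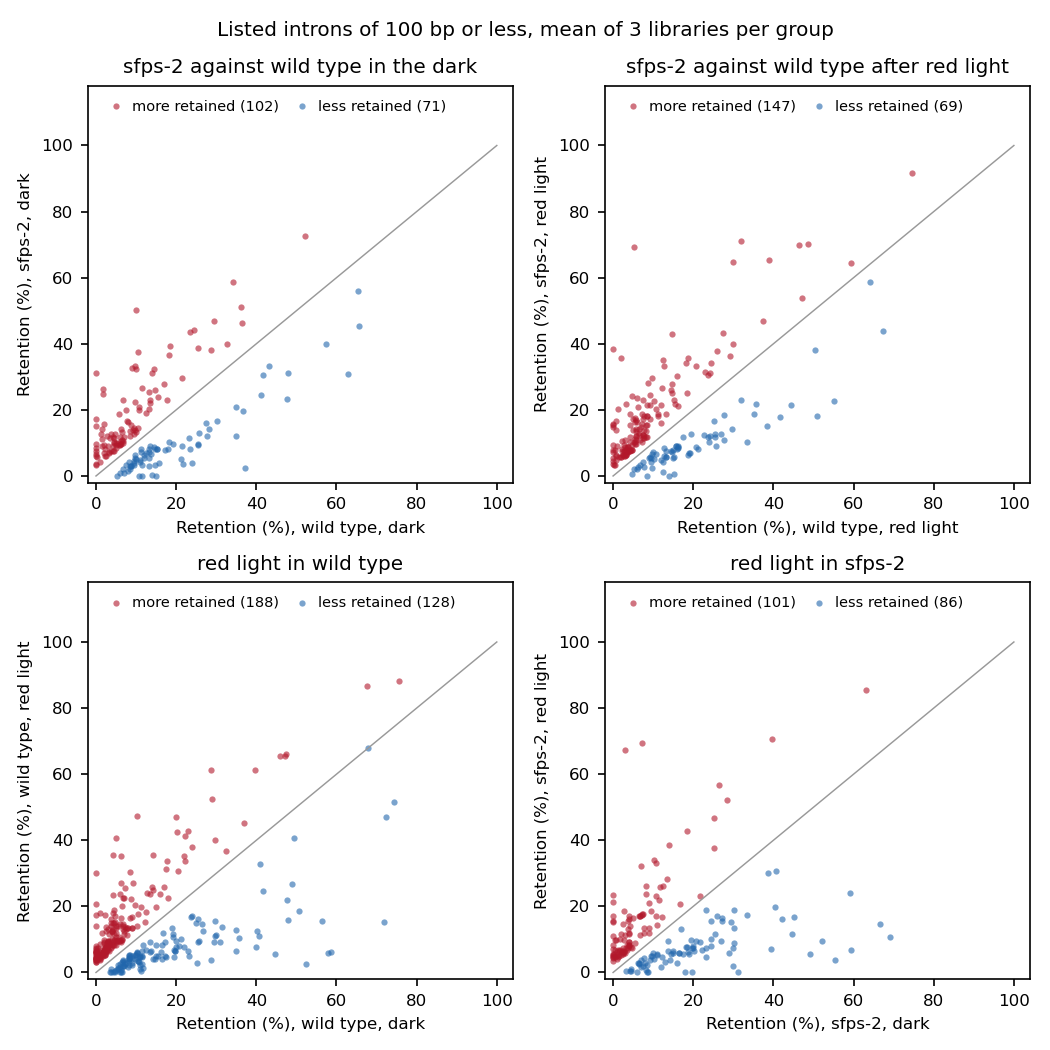
Mean retention (%) of each listed short intron in the first group of a comparison (horizontal axis) and in the second group (vertical axis), each the mean of 3 libraries, in red where more retained in the second group and blue where less. Points above the diagonal number 102, 147 and 188 in the first 3 panels, and those below it 86 in the last; most introns lie at low retention in both groups.

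Of the introns listed in both genotype comparisons, intron 7 of AT1G69450 had the largest difference by the smaller of its values in the 2 comparisons. Its retention was 30.0%, 34.3% and 38.4% in the dark wild-type libraries and 59.2%, 71.7% and 45.1% in dark sfps-2. After red light it was 31.6%, 27% and 30.9% in wild type and 62.9%, 67.9% and 63.2% in sfps-2. Every sfps-2 library lay above every wild-type library, by 24.4 points between the dark means and 34.8 points between the red means. In the authors' deposited table the gene's expression differed little between genotypes, at 44.9 against 44.5 FPKM in the dark and 38.4 against 40.0 after red light.

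Intron 4 of AT5G24352, which encodes a protein like the WNK kinases, went the other way. It was retained in 34.6%, 31.2% and 38.8% in dark wild type against 14.2%, 10.5% and 12% in dark sfps-2, and in 37.2%, 35.1% and 43.2% against 16.6%, 10.7% and 18.2% after red light. The groups did not overlap in either light condition, with sfps-2 lower by 22.6 and 23.3 points. The gene stood at 10.6 FPKM in dark wild type and 16.8 in dark sfps-2 (q = 0.0453) in the authors' deposited table, and at 8.87 and 15.6 after red light (q = 0.025).

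AT2G30600, a BTB/POZ domain protein, carried introns listed in both directions. Intron 6 (98 bp) was retained in 53.0%, 47.3% and 56.0% in dark wild type and in 73.2%, 72.6% and 71.9% in dark sfps-2, and in 50.8%, 44.3% and 50.4% against 71.7%, 65.9% and 72.9% after red light. All 6 sfps-2 libraries stood above all 6 wild-type libraries. The 100 bp intron of the same gene was lower in sfps-2, at 6.89%, 7.27% and 8.44% against 2.95%, 3.06% and 3.98% in the dark and 8.34%, 9.53% and 12.7% against 5.63%, 5.32% and 4.84% after red light, again without overlap. Expression of the gene in the authors' deposited table was higher in sfps-2, at 78.9 against 128 FPKM in the dark and 52.1 against 79.4 after red light.

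SOS4 encodes a pyridoxal kinase known for salt tolerance, and the listed intron is the first of 12, in the 5′ UTR. Its retention was 63.8%, 65.4% and 67.7% in dark wild type and 36.2%, 56.5% and 43.7% in dark sfps-2, and after red light 71.8%, 59.8% and 70.1% against 39.8%, 46.8% and 45.1%. The mutant libraries were lower without overlap, by 20.2 and 23.3 points between means, and dark sfps-2 was the most spread group. EDM2, a PHD finger protein that controls the disease resistance gene RPP7, had its intron 9 of 18 retained in 25.4%, 30.3% and 27.5% in dark wild type and 14.9%, 9.84% and 11.3% in dark sfps-2. After red light the values were 33.2%, 29.7% and 37.6% against 11.2%, 9.95% and 9.44%, so the 6 mutant libraries lay below the 6 wild-type ones.

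XBAT32, a RING-type E3 ubiquitin ligase, had intron 3 of 9 retained in 18.1%, 11.6% and 25% in dark wild type and 31.5%, 25.1% and 53.6% in dark sfps-2. The dark groups only just did not overlap, and their difference of 18.5 points was 10.1 points without sfps-2 dark replicate 3. After red light they stood further apart, at 19.3%, 18.5% and 17.0% against 29.8%, 37.8% and 34.6%. AT1G18660 intron 8 of 18 was retained in 9.37%, 9.95% and 10.6% in dark wild type and 35.8%, 33.1% and 28.4% in dark sfps-2, and in 7.25%, 8.37% and 11.9% against 21.5%, 22.1% and 21.0% after red light. AT4G38760, which is annotated as a nucleoporin, had intron 20 of 31 retained in 15.7%, 16.4% and 15.2% against 3.88%, 2.92% and 4.70% in the dark and 13.8%, 10.6% and 11.7% against 3.65%, 5.54% and 5.41% after red light. Neither of these overlapped between genotypes in either light condition.

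Per comparison, the introns named as largest are those with at least 10 reads in every library. Among introns listed for genotype in the dark and not after red light, the largest higher values in sfps-2 were in AT2G39690 and AT1G03687, which stood at 1.33 and 2.64 FPKM in dark wild type in the authors' deposited table. Intron 1 of AT2G39690, a leucine-zipper protein of unknown function, was retained in 3.33%, 14.3% and 13.5% in wild type and 34.2%, 44.7% and 33.3% in sfps-2. Intron 6 of AT1G03687, a DTW domain protein, was at 0%, 0% and 5.00% against 22.6%, 23.1% and 33.3%, on as few as 13.5 reads in a library. A count of 0 on the 17 and 23 reads of the first 2 wild-type libraries allows shares of up to 17.6% and 13.0%, limits that, like those given further on, are 3 reads of the total and cover counting error only. The largest lower value was in ECIP1, an MA3 domain protein that binds the ethylene signalling protein EIN2. Its 5′ UTR intron was retained in 59.2%, 65.5% and 63.7% in wild type and 32.3%, 30.1% and 30.5% in sfps-2, with at least 267 reads in each library and no overlap. Intron 7 of AT4G34140, which encodes a D111/G-patch protein, was at 47.9%, 50.9% and 44.4% against 35.3%, 13.0% and 21.5%. Both AT4G34140 and SFPS carry a G-patch, a domain found in RNA-binding proteins.

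After red light, PTM had a higher share in sfps-2. PTM is a membrane-bound PHD transcription factor described in signalling from chloroplast to nucleus, and the listed intron of 80 bp lies in a 3′ UTR by the RefSeq annotation used. It was retained in 30.2%, 43.2% and 43.3% in wild type and 68.4%, 72.5% and 55.2% in sfps-2, a difference of 26.4 points without overlap. PTM expression was 37.8 FPKM in wild type and 36.4 in sfps-2 in the authors' deposited table. Intron 5 of AT5G50650, a WD40 repeat protein, was at 55.6%, 59.3% and 24.5% against 82.6%, 67.9% and 59.5%, where 1 wild-type library was far below the others and the mutant's lowest was just above the wild type's highest. The difference of 23.6 points was 12.6 points without wild type red replicate 3.

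The largest lower values after red light were in AT2G32640 and AT4G00670. AT2G32640 is annotated as a lycopene beta/epsilon cyclase protein, and its intron 9 was retained in 49.5%, 46.6% and 56.4% in wild type against 15.8%, 28.2% and 10.6% in sfps-2. Intron 2 of AT4G00670, of the remorin family of plasma membrane proteins, was at 52.7%, 59.4% and 53.5% against 26.3%, 18.9% and 22.9%. Intron 3 of AT1G35625, a RING/U-box protein, was at 34.6%, 50.8% and 39.5% against 19.6%, 24.1% and 9.84%. None of these groups overlapped.

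The 1 intron that went opposite ways lies in the 3′ UTR of SKL1, a chloroplast shikimate kinase-like protein. In the dark it was at 48.4%, 59.3% and 64.6% in wild type and 55.6%, 27% and 37.5% in sfps-2, and after red light at 66.0%, 54.5% and 57.3% against 63.6%, 75.9% and 53.4%. The groups overlapped both times, with mean differences of -17.4 and 5.02 points, and without sfps-2 red replicate 2 the latter was -0.75 points. The dark difference was -10.9 points without sfps-2 dark replicate 2. The SKL1 locus overlaps another annotated locus, and how strand was used in counting is not given in the sources used here, so reads of the neighbour may be included.

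**Figure D2:**
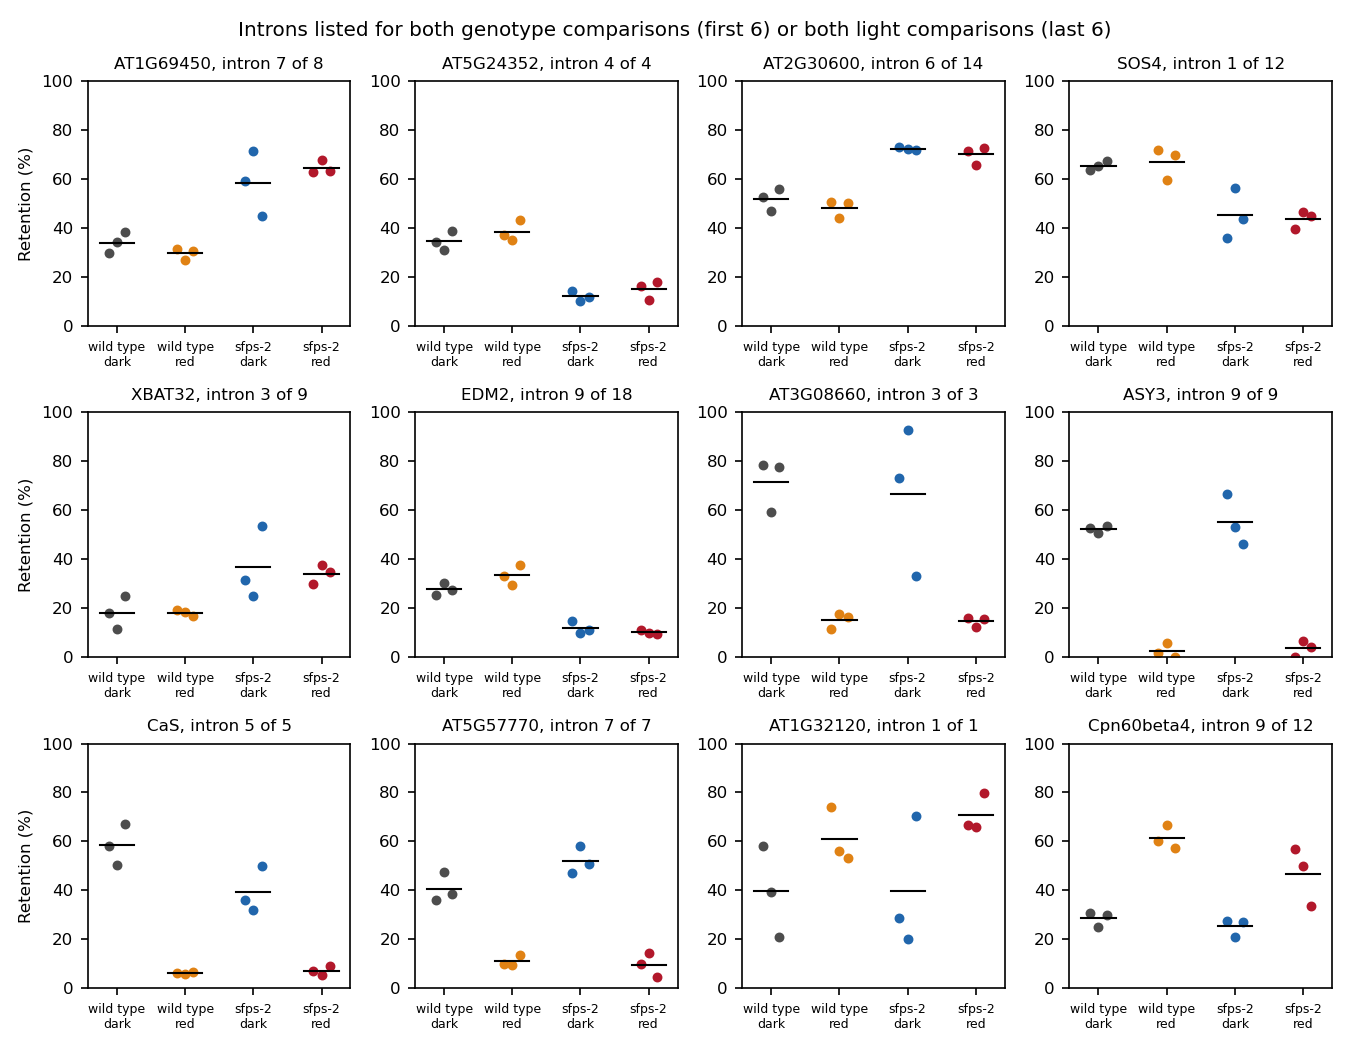
Retention (%) in every library of 6 introns listed for both genotype comparisons and 6 listed for both light comparisons. Points are libraries and bars are means of 3. In the first 6 panels both sfps-2 groups stand on one side of both wild-type groups. In the last 6 the red groups are set apart from the dark groups, with overlap in AT1G32120.

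The ends of the introns were compared by direction. The 3′ end TGCAG, read on the gene's own strand only, closes the AT1G69450 and PIF7 introns shown above. It closed 19.2% of the listed short introns, beside 19.6% of the 65677 annotated introns of 100 bp or less. In the dark genotype comparison it closed 24 of 102 more retained introns (23.5%) and 3 of 71 less retained ones (4.23%), and among the listed introns over 100 bp 26.2% and 8.25%. After red light the short introns gave 34 of 147 (23.1%) and 9 of 69 (13.0%), the longer ones 22.0% and 11.7%. For red light in wild type the shares were 16.5% of more retained and 21.1% of less retained short introns, and in sfps-2 20.8% and 20.9%. The share of T in the last 20 bases averaged 47.8% in the introns more retained in dark sfps-2 and 44.8% in those less retained, and 47.7% and 43.1% after red light. Listed introns over 100 bp gave 48.0% and 45.3% in the dark and 47.1% and 44.5% after red light. The annotated introns of 100 bp or less averaged 46.7%. The dark and red genotype lists share 45 introns, and the split by direction was made by the deposited values, so these shares are a description.

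The first bases GTATCC or ATATCC, letters that U12-type introns carry at their 5′ end, opened 4 of the 754 introns (0.531%), beside 0.288% of the annotated short introns. U12-type introns are a rare class removed by the minor spliceosome. Membership of that class was not tested beyond the first bases. All 4 short introns were listed as more retained in sfps-2 after red light, a comparison where 68.1% of all listed short introns were. Among listed introns over 100 bp, 0.665% opened with these bases. Of those, 2 were more and 1 was less retained in sfps-2 in each genotype comparison. In AT4G27640, an ARM repeat protein, intron 10 was at 6.25%, 5.56% and 7.18% in dark wild type and 15.6%, 13.7% and 13.4% in dark sfps-2, and at 6.69%, 2.78% and 9.92% against 11.7%, 12.9% and 12.3% after red light, with no overlap. The AT-AC intron of NodGS, a protein with nodulin and glutamine synthetase parts, was at 4.09%, 8.02% and 5.29% in red wild type against 15.7%, 20.6% and 14.3% in red sfps-2. SDG37, a SET domain protein, had its intron 4 at 6.17%, 2.70% and 7.27% against 20.5%, 14.3% and 14.3%. HEI10, needed for meiotic crossovers, had its intron 3 at 13.8%, 10.2% and 13.6% against 31.2%, 18.8% and 55.6%, on as few as 4.5 reads in a library, a difference of 22.7 points that was 12.5 points without sfps-2 red replicate 3. These introns were picked by their first bases with the directions in view.

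Red light in wild type gave 316 short introns, of which 188 (59.5%) were listed as more retained after light and 128 as less retained, beside 50.6% more retained among all 699 introns listed for this comparison. Genes of the chloroplast stood at both ends, with less retention in CaS and Cpn60beta2 and more retention in Cpn60beta4. The median size was 6.78 points, 110 introns differed by 10 points or more, and 267 (84.5%) had groups that did not overlap, beside 81.4%. Counts were thin in places: 32 introns had under 10 reads in some library, and 24 had retention at 0 in all 3 dark libraries, where a median of 13 reads stood behind the 0.

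In sfps-2 red light gave 187 short introns, of which 86 were listed as less retained and the other 54.0% as more retained, beside 44.6% of all 426 listed introns. The median size was 9.27 points, 87 differed by 10 points or more and the groups did not overlap for 163 (87.2%, beside 80.8%). Short introns made up 45.2% of the introns listed for light in wild type and 43.9% in sfps-2, against 23.3% and 27.4% in the genotype lists. The 2 light comparisons share no library, and 61 short introns stand in both lists, 19.3% of the wild-type list and 32.6% of the sfps-2 list. Of these 28 were more retained after light in both genotypes, 32 less retained in both, and 1 went opposite ways: intron 1 of AT2G40020, by -6.86 points in wild type and by 1.51 points in sfps-2, with overlapping groups both times. The sfps-2 value rests on 1 library: retention was 24.3%, 20% and 20.8% in the dark and 4.35%, 60% and 5.26% after light, on as few as 7.5 reads. Without sfps-2 red replicate 2 the difference was -16.9 points, and with reads summed over the group it was -6.43 points, the direction seen in wild type. The wild-type difference was -2.85 points without wild type dark replicate 1.

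**Figure D3:**
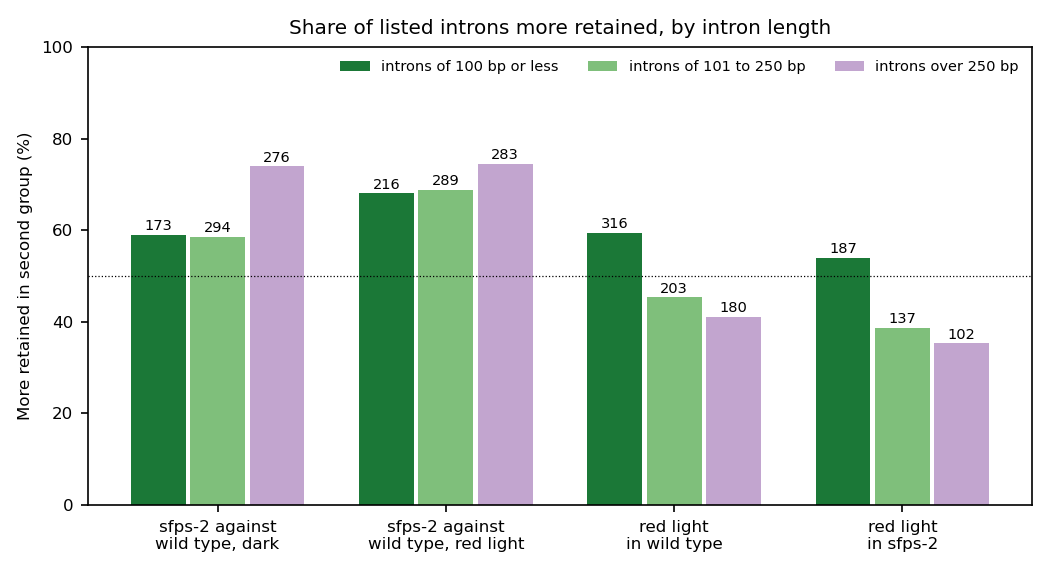
Share (%) of listed introns that were more retained in the second group of each comparison, for introns of 100 bp or less, of over 100 and up to 250 bp and over 250 bp, with the number of introns above each bar and a dotted line at 50%. For red light the short class stands at 59.5% in wild type and 54.0% in sfps-2, with 45.3% and 38.7% in the middle class and 41.1% and 35.3% in the long class.

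The split by length ran differently in the 2 kinds of comparison. More retained introns made up 58.5% of the middle class and 73.9% of the long class in dark sfps-2, and 68.9% and 74.6% after red light, so the short class did not exceed the long one there. For light the short class had the highest share of more retained introns in both genotypes. Since the classes come from lists selected on these same changes, no test was made of the differences. At the length limit itself, the 100 bp intron of mtLPD1 averaged 14.1% ± 1.19 (SD, n = 3) in dark and 35.7% ± 4.39 in red wild type. Just outside, 1 bp longer, the intron of SCPL13 averaged 50.9% ± 4.08 in dark and 43.7% ± 0.496 in red sfps-2, and that of eIFiso4G1 averaged 3.25% ± 0.633 in dark wild type and 6.74% ± 0.106 in dark sfps-2.

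CaS, the calcium sensing protein of the chloroplast thylakoid, had a large difference between dark and light, with at least 119 reads behind the share of its last intron in every library. Its last intron was retained in 58.3%, 50.4% and 67.2% in dark wild type and in 6.37%, 5.71% and 6.57% after red light. In sfps-2 it was retained in 36.2%, 32.2% and 50% in the dark and in 7.01%, 5.33% and 9.27% after light. All dark libraries stood far above all red ones, by 52.4 points in wild type and 32.2 points in sfps-2. Intron 4 went from 19.0%, 15.4% and 41.6% to 2.41%, 3.48% and 2.52% in wild type, and from 15.5%, 10.9% and 12.4% to 3.07%, 3.19% and 3.59% in sfps-2. The wild-type difference of -22.5 points was -14.4 points without wild type dark replicate 3. Introns 1 and 2 were listed as less retained after light as well, intron 1 in sfps-2 alone and intron 2 in both genotypes. In the authors' deposited table CaS expression was 6.21 FPKM in dark and 119 in red wild type, and 12 and 127 in sfps-2.

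ASY3, a protein of the meiotic chromosome axis, differed in the same direction, on as few as 14 reads in a library. Its last intron, the one that starts with GC, was at 52.9%, 50.7% and 53.5% in dark and 1.89%, 5.88% and 0% in red wild type. In sfps-2 it was at 66.7%, 53.2% and 46.5% in the dark and 0%, 6.67% and 4.35% after light. The groups did not overlap in either genotype, and the 2 counts of 0 allow shares of up to 11.5% in wild type and 21.4% in sfps-2. Unlike CaS, ASY3 was not called for expression, with 2.41 and 1.85 FPKM in dark and red wild type in the authors' deposited table.

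AT3G08660, of the NPH3 family that includes a phototropism protein, had its last intron at 78.4%, 59.2% and 77.8% in dark and 11.8%, 17.6% and 16.7% in red wild type, and at 73.3%, 92.9% and 33.3% in dark and 15.9%, 12.2% and 15.8% in red sfps-2, on as few as 9 reads. AT5G57770, annotated as an auxin canalization protein, had its last intron at 35.9%, 47.4% and 38.6% in dark and 10.1%, 9.43% and 13.6% in red wild type, and at 47.1%, 58.2% and 50.8% in dark and 9.84%, 14.3% and 4.76% in red sfps-2. Neither overlapped. The last intron of AT4G12830, an alpha/beta-hydrolase, was at 74.2%, 14.3% and 45.5% in dark and 3.84%, 7.74% and 5.56% in red wild type, where 1 dark library carried much of the difference of 38.9 points, which was 24.2 points without wild type dark replicate 1. In sfps-2 it was at 33.3%, 6.67% and 29.4% in the dark and 2.64%, 7.02% and 4.12% after light, and the groups overlapped.

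In the other direction, intron 9 of Cpn60beta4, a subunit of the chloroplast chaperonin, was at 30.9%, 25% and 30.0% in dark and 60.2%, 66.7% and 57.3% in red wild type. In sfps-2 it was at 27.7%, 20.9% and 27.3% in the dark and 56.8%, 49.8% and 33.8% after light. Red libraries were higher without overlap in both genotypes, by 32.7 and 21.5 points. The locus overlaps another one and belongs to a family of similar genes, so its counts are uncertain. Intron 3 of WAKL7, a wall-associated kinase-like protein, was at 6.67%, 14.8% and 9.09% in dark and 49.3%, 40.8% and 51.7% in red wild type, and intron 1 of FBA7, a fructose-bisphosphate aldolase, at 10%, 0% and 8.57% and 40.4%, 27.1% and 38.2%. Both rest on fewer than 20 reads in their thinnest library, and the 0 of FBA7 on 22 reads allows a share of up to 13.6%.

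In sfps-2 the last intron of PLP4, a patatin-like lipase, was at 24.3%, 32.6% and 22.6% in the dark and 53.7%, 53.6% and 63.1% after light, without overlap. The only intron of AT1G32120, a phosphatase 7 long form-like protein, was at 58.3%, 39.4% and 20.9% in dark and 74.2%, 55.9% and 53.4% in red wild type, and at 28.6%, 20% and 70.4% and 66.7%, 65.9% and 79.7% in sfps-2. Its groups overlapped in both genotypes, and the wild-type difference of 21.6 points was 12.3 points without wild type dark replicate 3.

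The largest value in the sfps-2 light list was in PP5.2, a phosphatase that acts on phytochrome, and it rested on libraries with no spliced reads. Intron 7 was at 2.30%, 2.23% and 4.32% in dark and 1.70%, 100% and 100% in red sfps-2. The spliced reads in the red libraries were 520, 0 and 0, and with reads summed over the group the difference was 3.58 points in place of 64.3. Intron 2 of AT3G09830, named after its values were seen, had the same form, with 83, 0 and 0 spliced reads in red sfps-2. The reads over its boundaries were few in all libraries.

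Several introns of 1 gene could be followed where more than 1 was listed. Of the 620 host loci, 98 held more than 1. Cpn60beta2, another chaperonin subunit, held 9 among its 14 introns, 8 of them listed as less retained after light in wild type and 5 in sfps-2, none as more retained. Intron 13 was at 31.5%, 11.8% and 26.2% in dark and 5.52%, 4.67% and 4.72% in red wild type, and at 12.5%, 17.6% and 26.3% in dark and 5.68%, 4.21% and 8.88% in red sfps-2. Intron 12 was at 19.0%, 12.3% and 20.9% and 5.86%, 3.07% and 5.42% in wild type, and at 24.7%, 13.1% and 21.9% and 7.30%, 3.95% and 10.9% in sfps-2. The groups did not overlap for either intron in either genotype. Another listed intron of Cpn60beta2 differed by -4.85 points in wild type, which was -1.83 points without wild type dark replicate 3. A further one differed by -2.72 points, which was -0.929 points without wild type dark replicate 2. Reads may be shared with similar genes of the family. In the authors' deposited table Cpn60beta2 expression was 6.59 FPKM in dark and 63.7 in red wild type, and 9.40 and 55.9 in sfps-2.

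ARR11, a B-type response regulator of cytokinin signalling, had 3 of its 4 introns listed as more retained after light in both genotypes. Intron 1 was at 7.49%, 6.03% and 4.20% in dark and 20.8%, 23.2% and 26.8% in red wild type, and at 13.6%, 11.4% and 7.14% and 37.3%, 37.1% and 25.3% in sfps-2. Intron 2, shown above, was at 8.64%, 2.81% and 9.02% and 20.3%, 20% and 27.1% in wild type, and at 11%, 11.6% and 7.84% and 41.0%, 36.2% and 25.1% in sfps-2. Intron 4 was at 4.27%, 5.21% and 4.17% and 17.4%, 13.2% and 14.2%, and at 8.42%, 3.70% and 8.18% and 23.2%, 17.5% and 10.3%. Every red library stood above every dark library of its genotype for all 3 introns. ARR11 expression in the authors' deposited table was 10.5 FPKM in dark and 7.71 in red wild type, below the fold needed for a call, and 10.5 and 10.9 in sfps-2.

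BGLU8, a beta-glucosidase with a close copy in BGLU9 whose reads may be shared, held 4 such introns, all more retained after light where listed. Intron 8 was at 6.54%, 7.82% and 13.3% in dark and 29.2%, 21.1% and 30.5% in red wild type, and at 9.28%, 7.92% and 7.45% and 25.1%, 26.5% and 26.7% in sfps-2, without overlap. The other 3 were each listed in 1 genotype, with group means of at most 10.3%. In wild type, light was listed with more retention in all 3 listed introns of DEG5, a protease of the thylakoid lumen, and of NdhO, a subunit of the chloroplast NDH complex. In GBSS1, the granule-bound starch synthase, 3 introns were listed the same way, with retention at 0% in the dark on as few as 2 reads in a library. In intron 1, in the 5′ UTR, the dark values allow shares of up to 20%, 15.8% and 60% in the single libraries. The red values of 8.33%, 10.1% and 5.88% lie below those limits, so no dark library by itself could show a difference. A limit over the dark libraries together was not computed. The 5 listed introns of EMB3144, an AAA-type ATPase, were less retained after light, with 1 of them at means of 21.9% ± 3.91 in the dark and 7.82% ± 3.99 after light (SD, n = 3).

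Between genotypes after red light, 3 introns of KEA1 were listed as more retained in sfps-2. KEA1 is a potassium antiporter of the chloroplast envelope. In the 92 bp intron the values were 4.89%, 5.37% and 2.63% in wild type and 14.3%, 7.09% and 9.73% in sfps-2, without overlap. In the 75 bp intron they were 6.05%, 11.2% and 4.84% against 12.6%, 11.3% and 13.4%, only just apart, and in the 87 bp intron 5.36%, 4.25% and 4.64% against 9.49%, 8.58% and 5.15%, which overlapped. DFD, a folylpolyglutamate synthase, had 3 as well, of which 2 had overlapping groups, with differences of 6.36 and 6.46 points that were 3.50 and 3.63 points without sfps-2 red replicate 3. KEA1 was at 34.7 FPKM in red wild type and 17.1 in red sfps-2 in the authors' deposited table.

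**Figure D4:**
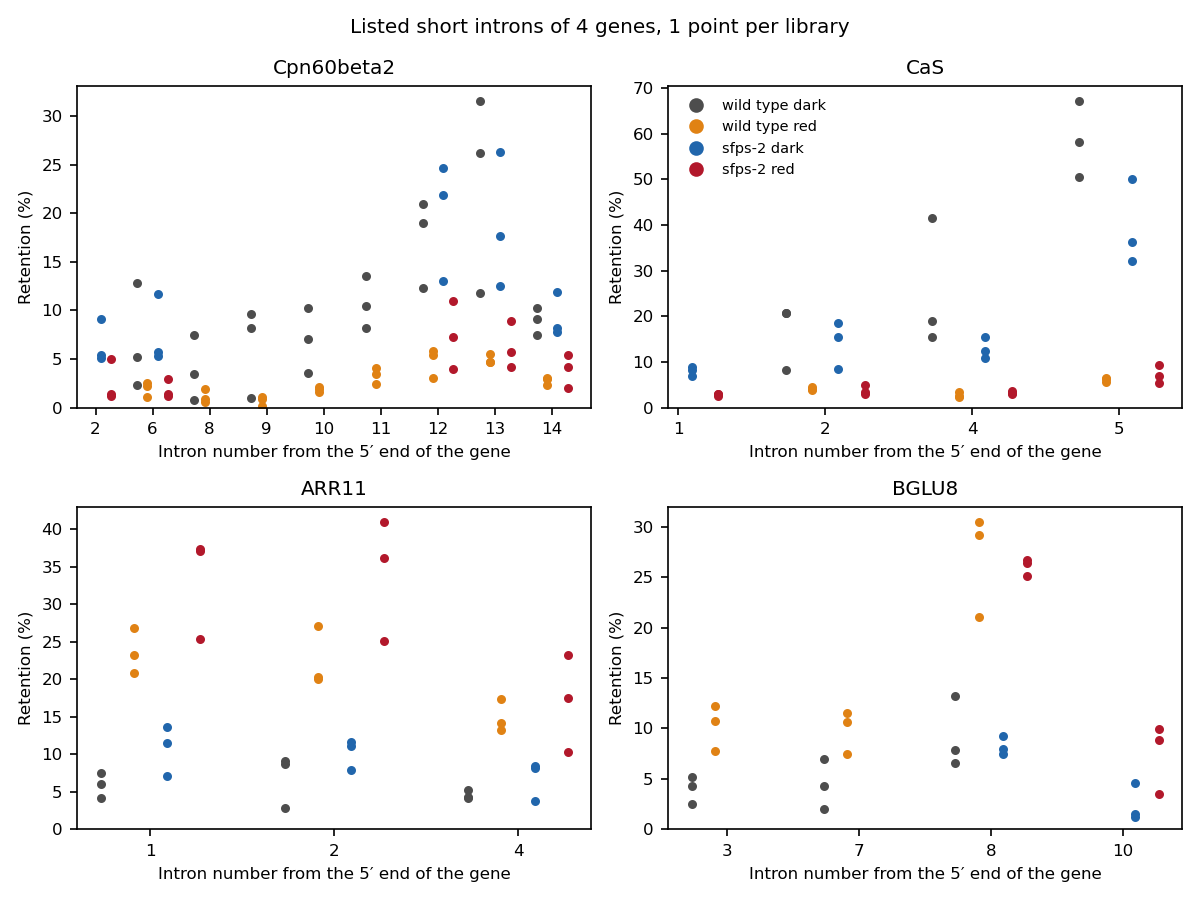
Retention (%) in every library for the listed short introns of Cpn60beta2, CaS, ARR11 and BGLU8, placed by intron number from the 5′ end, with 1 point per library and colour for the group. Only the introns and groups for which counts are listed are drawn. Red-light libraries lie below dark ones in Cpn60beta2 and CaS, with overlap in some introns of Cpn60beta2, and mostly above them in ARR11 and BGLU8.

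Listed short introns were found in 1 of 28 light signalling genes, 1 of 24 clock genes and 1 of 35 genes of splicing and RNA processing, while 2.92% of all genes tested for expression held one. Genes outside these lists, PP5.2 among them, can also have such roles. PIF7 is a basic helix-loop-helix factor that phytochrome binds. Its last intron was at 55.6%, 75% and 42.9% in dark and 3.37%, 6.21% and 7.92% in red wild type, without overlap, on 13.5, 8 and 3.5 reads in the dark. Its intron 4, listed in sfps-2, was at 87.5%, 20% and 100% in the dark and 9.09%, 11.4% and 12% after light, on as little as 1 read. PIF7 expression in the authors' deposited table was 0.317 FPKM in dark and 9.81 in red wild type, and 0.487 and 12.1 in sfps-2.

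The clock gene was LHY, a morning-phased transcription factor. Its intron 6 was at 1.04%, 5.38% and 3.45% in dark and 0.461%, 0% (up to 1.44% on 209 reads) and 1.12% in red sfps-2, overlapping, a mean difference of -2.76 points, which was -1.72 points without sfps-2 dark replicate 2. The splicing gene was AT1G60900, a large subunit of the U2 auxiliary factor, which recognises the 3′ splice site. Its intron 6 was at 4.66%, 1.98% and 2.51% in red wild type and 4.19%, 8.06% and 13.9% in red sfps-2, also overlapping, with a mean difference of 5.65 points, which was 3.07 points without sfps-2 red replicate 3. In the authors' deposited table AT1G60900 stood at 35.3 FPKM in dark wild type and 22.6 in dark sfps-2 (q = 0.00116). After red light it was at 32.2 in wild type and 22.0 in sfps-2, below the fold needed for a call.

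Whether light moved retention differently in the 2 genotypes was tested directly, in the 582 bins of any kind whose counts are given for all 12 libraries, 105 of them short introns. A bin has counts for all 12 libraries because it was listed in both genotype or in both light comparisons, so introns listed for light in 1 genotype alone were not in this test unless listed in both genotype comparisons, and the bins in it were selected on differences seen in both conditions. The model was limma on log2 odds of retention in each library, and the contrast was the light difference in sfps-2 minus that in wild type. With Benjamini-Hochberg adjustment over the 582 bins, 0 of the 105 short introns and 0 bins of any kind (0%) had an adjusted p under 0.05. At an unadjusted p under 0.05 there were 4 of the 105, beside 27 of the 582 (4.64%). With edgeR's quasi-likelihood test the counts of short introns were 0 and 5.

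The smallest p belonged to the last intron of AT1G53440, a leucine-rich repeat receptor kinase with close copies beside it. Its retention was 30.1%, 35% and 23.4% in dark and 10.1%, 7.78% and 10% in red wild type, and 24.4%, 29.5% and 19.2% in dark and 15.0%, 14.1% and 17.8% in red sfps-2. The log2 odds after light differed from those in the dark by -2.0 in wild type and by -0.77 in sfps-2, a difference of 1.23 ± 0.37 (SE), with an adjusted p of 0.591 by limma and of 0.429 to 0.995 over the alternatives. For the last intron of CaS the values were -4.42 in wild type and -3.09 in sfps-2, with a difference of 1.33 ± 0.47 (SE) and an adjusted p of 0.865 by limma (0.334 to 0.999).

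The other introns with small p values showed differences of either sign, none of which passed the adjusted threshold. They were 1.33 ± 0.58 (SE) for intron 4 of CaS, 1.34 ± 0.64 for SKL1 and 0.79 ± 0.32 for AT4G38760. They were -0.64 ± 0.30 for EDM2, -0.63 ± 0.30 for AT1G18660 and -0.67 ± 0.33 for mtLPD1, all in log2 odds. mtLPD1 encodes the mitochondrial lipoamide dehydrogenase, and its 3′ UTR intron of 100 bp was at 15.0%, 12.8% and 14.6% in dark and 38.5%, 30.6% and 37.9% in red wild type. In sfps-2 it was at 10.9%, 12.9% and 10.7% in the dark and 18.3%, 27.9% and 19.3% after light. Red libraries were above dark ones in both genotypes, and the red sfps-2 libraries were below the red wild-type ones.

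Host gene expression is a separate measure from retention. From the authors' deposited table, genes with q below 0.05 and at least a 1.5-fold difference in group FPKM were taken as called, and levels are single group values with no error. For red light in wild type the authors' deposited table called 123 of 252 tested host genes higher (48.8%) and 20 lower (7.94%), while of all 20635 genes tested 14.9% were higher and 5.85% lower. For red light in sfps-2 it was 71 of 161 higher (44.1%) and 26 lower (16.1%), beside 12.4% and 8.97% of all genes tested. The hosts' median log2 fold was 0.60 in wild type and 0.42 in sfps-2, beside 0.01 over all genes tested in wild type.

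Both directions of retention change were found in genes called higher. In wild type 58 of 98 hosts of less retained introns (59.2%) and 70 of 162 hosts of more retained introns (43.2%) were called higher in the authors' deposited table, and in sfps-2 54.3% and 36.6%. Hosts of several named introns were among those called higher: AT3G08660 went from 0.429 to 1.96 FPKM in wild type, AT4G12830 from 0.644 to 24.3, FBA7 from 1.41 to 9.57 and AT5G57770 from 2.87 to 9.05 in the authors' deposited table. The part of transcript level or read number in the retention values was not tested.

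Between genotypes fewer hosts were called. In the dark the authors' deposited table called 12 of 164 hosts higher (7.32%, beside 5.22% of genes tested) and 7 lower (4.27%, beside 1.99%). After red light it was 12 of 198 higher (6.06%, beside 3.28%) and 11 lower (5.56%, beside 3.23%). The hosts called lower were nearly all hosts of more retained introns: 7 of 99 against 0 of 67 in the dark and 10 of 134 against 1 of 68 after red light, in the authors' deposited table. Called higher were 6 of 99 hosts of more retained introns and 7 of 67 of less retained ones in the dark. After red light these were 9 of 134 and 5 of 68. A link between retention and expression was not tested.

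**Figure D5:**
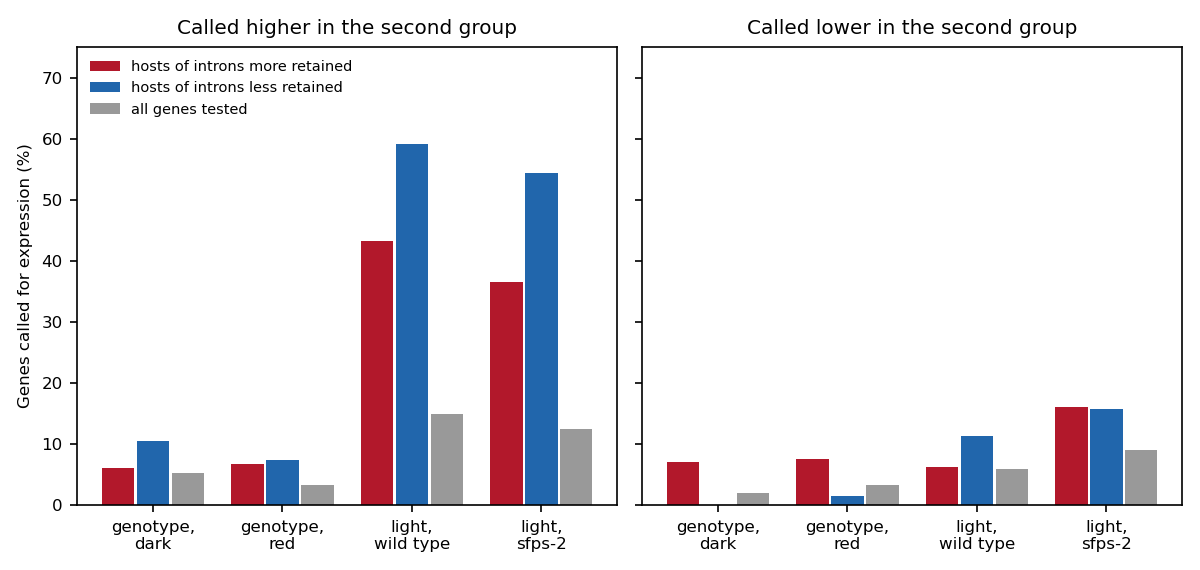
Share (%) of host genes called higher (left) or lower (right) for expression in the second group of each comparison, for hosts of more retained introns, hosts of less retained introns and all genes tested, from the authors' deposited q and FPKM. The light comparisons stand out on the left, at 43.2% and 59.2% in wild type and 36.6% and 54.3% in sfps-2, against 14.9% and 12.4% of all genes tested.

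Host functions were read from the RefSeq annotation. A note placing the product in the chloroplast was found for 107 of the 620 hosts (17.3%). By comparison the share was 10 of 164 hosts (6.10%) for genotype in the dark and 28 of 200 (14%) after red light. It was 63 of 253 (24.9%) for red light in wild type and 40 of 161 (24.8%) in sfps-2, beside 10.4% of genes tested for expression. Hosts of listed longer introns gave 7.84%, 9.71%, 17.9% and 18.4% in the same order. Names of kinases, phosphatases and signalling proteins made up 69 of 620 hosts (11.1%), beside 8.11% to 8.17% of genes tested in the 4 comparisons. RNA-binding and processing proteins made up 13 of 620 (2.1%), beside 1.98% to 2.02%.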

How the data were processed

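Libraries were stranded total RNA, with ribosomal RNA removed. Per the submitters' processing notes, FastQC, TopHat2, Cufflinks and the build TAIR10 were used, and per the series' design text ASpli found the splicing bins. Versions are not given in the sources used here. The deposited counts are junction reads per library for bins past the authors' thresholds. The authors' fraction columns are shares from reads summed over a group, and recomputed shares equalled them. FPKM values were made by the authors per group and scaled within each table. The q-value and FDR columns (p-values) are the authors'. Bins below the thresholds, term tables and sheets without shares were not analysed here, and 0 per-sample columns were left unmapped.

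Retention was computed per library. The genotype-by-light test used limma 3.58.1 in R 4.3.3 with 0.5 added to each read number, and edgeR 4.0.16 as an alternative. It was also run on simulated data. Their spread between libraries was a fixed value, not one estimated from these libraries, so that run does not show how large a difference could be found here. Coordinates were matched to RefSeq introns on TAIR10.1 (753 of 754). Numbers of reads limit precision as stated beside the values.

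Members, gene lists and tests were chosen with earlier results of these data known. Named introns are, per comparison, the 3 largest changes each way with at least 10 reads in every library, list members, the 8 smallest interaction p-values, the 6 largest shared by both genotype and by both light comparisons, and 2 on each side of the length limit. Introns of the genes holding several, those opening with GTATCC or ATATCC, and that of AT3G09830 were named after their values were seen. Alternatives were the boundary used, summed reads, read minimums, added numbers, the replicate block, each library left out and expression thresholds.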

Additional observations from a re-analysis of the deposited data

How the results depend on the processing

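The number of more retained introns stayed within 1.5 times the value reported when either boundary alone, summed reads, a minimum of 10 reads or the replicate block was used, and under 2 settings chosen after seeing the data (without overlapping loci, without introns lacking spliced reads in 1 library). Over these the number was 93 to 103 for genotype in the dark, 135 to 147 after red light, 166 to 189 for light in wild type and 83 to 102 in sfps-2. The introns were listed for changes in these same reads, so the settings left little room for the numbers to move. With any 1 library left out at most 2 introns of a comparison changed direction. Over all libraries left out in turn, 0 of 173, 3 of 216, 5 of 316 and 1 of 187 differences changed direction for some library. Counting these, 28, 44, 79 and 45 moved by over 1.5 times or changed direction. Hosts called at a fold of at least 2 in place of 1.5 numbered 8 in place of 19 for genotype in the dark and 9 in place of 23 after red light. For named introns, 498 of 522 changes moved by less than 1 SD, pooled over the groups compared, and 23 moved by more. Leaving out 1 of 3 libraries cannot move a difference of means by 1 such SD. The 23 therefore come from the boundary and summed-read settings, and the 498 do not measure dependence on single libraries. The SKL1 intron after red light ran from -0.75 to 10.5 points with each library left out, against 5.02 as reported. The lowest value came without sfps-2 red replicate 2, and the cause was not tested.

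The genotype-by-light test called 0 short introns under every setting run, 0 to 0 with each library left out. Replicate numbers did not pair the samples: over 18 same-numbered pairs the correlation of deviations ran from -0.31 to 0.239, with 3 over 0.1, and the fit with the replicate block also called 0. Between differently numbered libraries it ran from -0.393 to 0.508, for sfps-2 dark replicate 1 with sfps-2 red replicates 2 and 3. A block by replicate number does not take up such a relation. Leaving out introns that overlap other annotated introns was not run, because only bins with the plain intron mark were taken here. Limits come from read number: between 12 and 32 introns a comparison had under 10 reads in some library.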
